A study of Mus musculus with 6 samples.

Results

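Guanylate-binding proteins (GBPs) and immunity-related GTPases (IRGs) are 2 families of interferon-inducible GTPases, and their mRNAs were followed here in wildtype mouse embryonic fibroblasts (MEFs) treated with TNFα. The members were 10 genes fixed by symbol: the GBPs Gbp2, Gbp3, Gbp5, Gbp6 and Gbp7, and the IRGs Irgm1, Irgm2, Igtp, Iigp1 and Ifi47. By symbol, 9 of the 10 were found in the expression table, among 21837 genes in all. RNA was sequenced from untreated primary MEFs and from MEFs given TNFα at 20 ng/ml, collected after 1.5, 6 or 24 hr. Each time had 1 library. All groups were wildtype, of the strain C57BL/6x 129, made from day 13.5 embryos and used at passage 4. For the histone mark H3K4me3, untreated MEFs gave 1 ChIP-seq library beside 1 input library. There was no replicate at any time, so no test was made, and each value below describes 1 library.

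The name Gbp6 needs care. The row that the table lists as Gbp6 carries transcript identifiers that RefSeq gives to Gbp7, and no row carries the symbol Gbp7. RefSeq's own Gbp6 is listed under the older symbol Mpa2l. The row listed as Gbp6 is therefore called Gbp7 below, it counts as 1 of the 9 members found, and Mpa2l is described beside the members. Of the 9 members, 4 were GBPs and 5 were IRGs.

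Both families act inside the cell against bacteria and protozoa that live in vacuoles. Interferon-γ binds its receptor and signals through the kinases Jak1 and Jak2, and the GTPase genes are then turned on through short promoter elements, the gamma-activated site and the interferon-stimulated response element. The transcription factor Irf1 acts through the latter. GBPs are large GTPases related to dynamin that gather on pathogen vacuoles. Among the IRGs, Irgm1, Irgm2 and Igtp are regulators that sit on the cell's own membranes and hold the effector IRGs inactive, whereas Iigp1 and Ifi47 are effectors. TNFα signals mainly through NF-κB, which also drives Irf1.

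The promoters were read first, because the members share elements there that do not depend on the measured RNA. RefSeq windows from 250 bases before to 50 bases after the start (assembly GRCm38.p6) were at hand for 8 members, all but RefSeq's Gbp6 and Iigp1. The stretches printed here hold the matches nearest to the start, 5′ to 3′ in the direction of the gene, with each motif match in capitals.
Gbp2: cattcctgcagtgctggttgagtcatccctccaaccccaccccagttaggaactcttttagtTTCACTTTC
Gbp3: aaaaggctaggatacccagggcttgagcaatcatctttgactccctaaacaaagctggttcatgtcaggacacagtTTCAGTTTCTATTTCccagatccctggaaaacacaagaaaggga
Gbp5: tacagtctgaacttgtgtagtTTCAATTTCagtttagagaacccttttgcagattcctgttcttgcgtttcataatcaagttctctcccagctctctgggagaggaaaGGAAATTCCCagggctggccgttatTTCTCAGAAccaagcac
Gbp7: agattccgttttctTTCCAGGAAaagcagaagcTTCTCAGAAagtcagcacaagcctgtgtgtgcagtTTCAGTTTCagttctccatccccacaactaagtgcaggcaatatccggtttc
Irgm1: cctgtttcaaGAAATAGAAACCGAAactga
Irgm2: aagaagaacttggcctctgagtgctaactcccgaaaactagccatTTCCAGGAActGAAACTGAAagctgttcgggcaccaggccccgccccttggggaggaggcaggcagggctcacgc
Igtp: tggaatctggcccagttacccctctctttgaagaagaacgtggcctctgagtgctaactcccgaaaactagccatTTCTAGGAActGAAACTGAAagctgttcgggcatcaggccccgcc
Ifi47: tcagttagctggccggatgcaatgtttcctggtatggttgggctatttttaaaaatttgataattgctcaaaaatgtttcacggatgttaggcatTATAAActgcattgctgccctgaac

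In the mm9 assembly, which the files use, these letters were found on chromosome 3 for the GBPs and on chromosome 11 for the IRGs. They lie at chr3:142283507-142283577 for Gbp2, chr3:142222888-142223007 for Gbp3, chr3:142159713-142159862 for Gbp5 and chr3:142193180-142193299 for Gbp7, all on the plus strand. They lie at chr11:48684933-48684962 on the minus strand for Irgm1. On the plus strand they lie at chr11:58028359-58028478 for Irgm2, chr11:58012938-58013057 for Igtp and chr11:48889969-48890088 for Ifi47.

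The core of the interferon-stimulated response element, searched as GAAANNGAA on both strands, was found in 7 of the 8 windows, all but that of Ifi47. Of all 32851 mouse promoter windows of the same length, 8.56% hold it. Counted from the start, the match began at -58 in Gbp2, -52 in Gbp7, -34 in Igtp and -64 in Irgm2. Gbp3 held a pair of overlapping matches at -44 and -38, and Irgm1 another pair at -30 and -24. In Gbp5 the match lay farther out, at -164. In the 4 GBPs the core reads in the opposite direction to the gene, and in the 3 IRGs it reads in the same direction. On the gene's own strand alone it was thus found in 3 of the 8 windows.

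The gamma-activated site, searched as TTCNNNGAA (the same on both strands), was found in 4 of the 8 windows and in 8.30% of all windows. Gbp7 held it at -106 and -87, and Gbp5 at -245 and -52. In Igtp it began at -45 and in Irgm2 at -75, in both cases 11 bases before the response element core. These neighbouring genes have similar promoters: 244 of 265 bases aligned without a gap were identical, 92.1%. The NF-κB consensus of 10 bases, searched on both strands, was found only in the window of Gbp5, at -77 on the opposite strand, against 4.51% of all windows. The TATA box, searched as TATAAA, was found in 2 windows, at -25 in Ifi47 and on the opposite strand at -207 in Gbp3, against 13.6% of all windows. A match describes letters and is not a measured binding site.

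**Figure D1:**
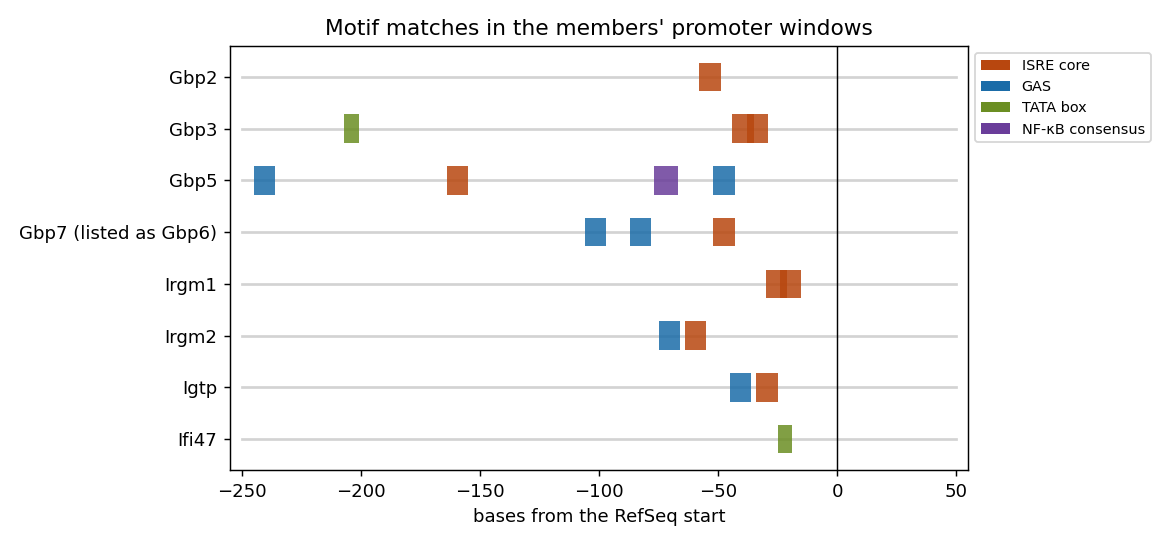
Motif matches in the promoter windows of the 8 members with a window, by distance in bases from the RefSeq start (vertical line, x axis from 250 bases before to 50 after). Each coloured block is 1 match, and a response element core (ISRE core) lies within 64 bases before the start in 6 members and at -164 in Gbp5.

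Levels are given in the deposited RPKM units, which are per length of transcript but on a scale of their own, as the mean of 2 columns, R1 and R2, of each library. What the columns hold is not stated, so the gap between them is no replicate spread. A log2 ratio is that of the value plus 1 to the untreated value plus 1. A gene was counted as higher when it was at least 2-fold higher in both columns. In all 1403 low transcripts tried, the deposited values were whole numbers of covered bases to within 0.05 of a base. The lowest number was most often 41, though in only 13.4% of them. The reads behind a value were estimated by taking 41 bases as a read, so these estimates are rough. Per column, the members rested on 4.1 to 106 such reads in the untreated library, 34.9 to 1259 at 1.5 hr, 28.7 to 376 at 6 hr and 57.8 to 951 at 24 hr. The counting errors given below cover counting only.

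At 1.5 hr of TNFα, all 9 members were at least 2-fold higher than in untreated MEFs in both columns, as were 21.8% of the 17964 genes with any value above 0. Under the 3 other scalings of the libraries 8 or 9 of the 9 members were higher, and 11.6% to 15.2% of all genes. The median log2 ratio of the members was 3.12, against 0.24 over all genes. Gbp5 and Gbp2 had the largest ratios and Iigp1 the smallest. 

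**Figure D2:**
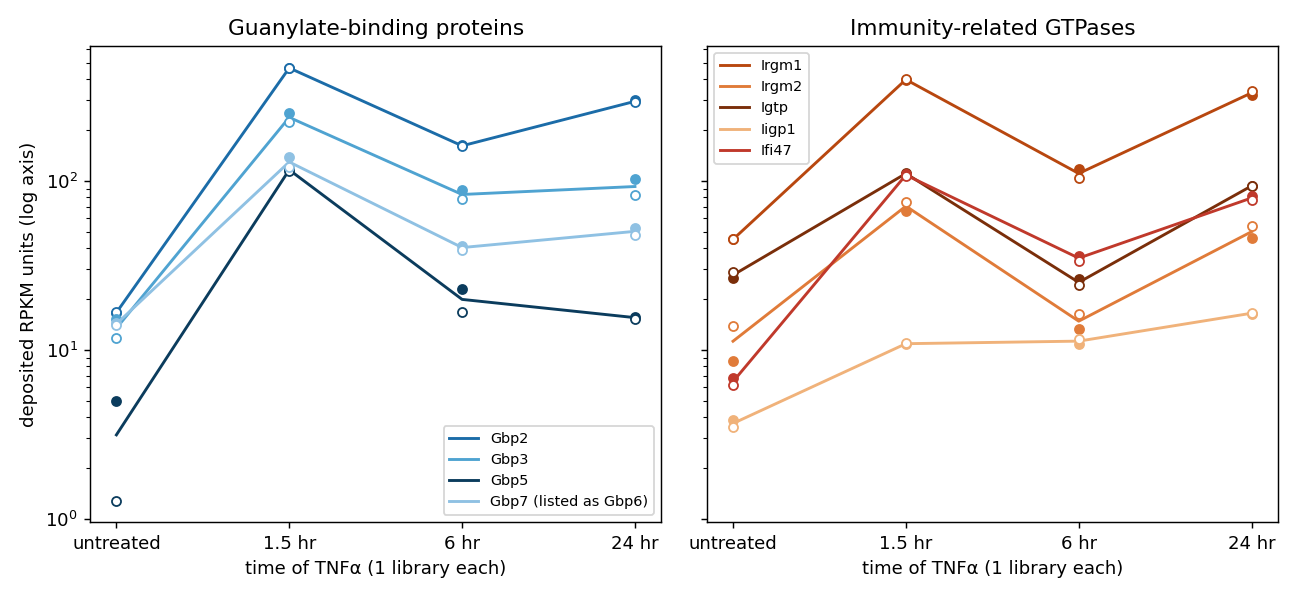
Level of each member in deposited RPKM units (log axis) in the untreated library and at 1.5, 6 and 24 hr of TNFα, GBPs on the left and IRGs on the right. Filled points are the R1 column, open points the R2 column and lines their mean, and as deposited 8 of the 9 members are highest at 1.5 hr and Iigp1 at 24 hr. With the libraries scaled in any of 3 other ways, 6 are highest at 1.5 hr, Irgm1 and Igtp at 24 hr and Iigp1 at 6 hr.

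Gbp2 is a GBP with a lipid anchor that is recruited to the vacuole of Toxoplasma. It was listed at 16.5 and 16.7 (R1 and R2) in untreated MEFs, 464 and 469 at 1.5 hr, 162 and 160 at 6 hr, and 300 and 292 at 24 hr. The columns nearly coincided at every time, and every treated value lay far above the untreated ones. Its log2 ratios at 1.5, 6 and 24 hr were 4.73, 3.20 and 4.08. Gbp2 was the highest member at 1.5 and 6 hr, and its ratios at 6 and 24 hr were the largest of the 9.

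Gbp3 was listed at 15.2 and 11.7 in untreated MEFs, 251 and 224 at 1.5 hr, 88.2 and 78.0 at 6 hr, and 103 and 82.5 at 24 hr. As deposited, the ranges of the columns overlapped at 6 and 24 hr. The scalings of whole libraries, given with the 6 hr results, put 24 hr lower, at a log2 ratio to 6 hr between -0.70 and -0.60. Its log2 ratios at 1.5, 6 and 24 hr were 4.05, 2.54 and 2.70.

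Gbp5, which promotes assembly of the NLRP3 inflammasome, had the least secure untreated value of the 9. It was listed at 4.99 and 1.28 in untreated MEFs, which rest on an estimated 15.8 and 4.1 reads with counting errors of 25.2% and 49.4%. At 1.5 hr it was listed at 118 and 114, at 6 hr at 23.0 and 16.8, and at 24 hr at 15.7 and 15.3. The treated columns lay close together, so most of the doubt about its ratio comes from the untreated library. The log2 ratio at 1.5 hr was 4.83, with 4.31 from R1 and 5.66 from R2. At 6 hr it was 2.34 and at 24 hr 2.0, where R1 gave 1.48 and R2 gave 2.84. As deposited, Gbp5 was the only member whose level at 24 hr lay below that at 6 hr in both columns, and under each of the 3 other scalings Gbp3, Gbp7 and Iigp1 did so as well.

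Gbp7, reported to bring parts of the NADPH oxidase and the autophagy machinery to vacuoles, was listed at 14.4 and 14.0 in untreated MEFs, 138 and 121 at 1.5 hr, 41.4 and 39.2 at 6 hr, and 52.6 and 48.0 at 24 hr. Its log2 ratios at 1.5, 6 and 24 hr were 3.10, 1.44 and 1.75. By the mean of the columns it had the smallest ratio of the 4 GBPs at all 3 times, from an untreated level close to those of Gbp2 and Gbp3.

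Among the IRG regulators, Irgm1 (needed to resist mycobacteria and Listeria) was the most abundant. It was listed at 45.1 and 45.0 in untreated MEFs, 393 and 403 at 1.5 hr, 117 and 104 at 6 hr, and 322 and 342 at 24 hr. It had the highest level of all members in the untreated library and again at 24 hr. Its log2 ratios at 1.5, 6 and 24 hr were 3.12, 1.28 and 2.85.

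Irgm2 was listed at 8.64 and 13.8 in untreated MEFs, 66.6 and 75.2 at 1.5 hr, 13.2 and 16.3 at 6 hr, and 45.8 and 54.3 at 24 hr. The untreated and the 6 hr values overlapped, and those at 1.5 and 24 hr lay well above them. The log2 ratios at 1.5, 6 and 24 hr were 2.55, 0.37 and 2.06. Igtp, the regulator also called Irgm3, followed the same course from a higher level. It was listed at 26.5 and 28.9 in untreated MEFs, 110 and 111 at 1.5 hr, 26.1 and 24.1 at 6 hr, and 93.7 and 93.1 at 24 hr. Its log2 ratios at 1.5, 6 and 24 hr were 1.96, -0.14 and 1.72. At 6 hr Igtp lay below its untreated level in both columns, the only member that did. Of the 41-base sequences of the longest coding transcript, 11.9% for Igtp and 8.16% for Irgm2 also occur in a coding transcript of another gene, most often in each other, so reads may have been split between them.

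The effectors differed from each other. Ifi47 was listed at 6.82 and 6.15 in untreated MEFs, 111 and 106 at 1.5 hr, 36.1 and 33.7 at 6 hr, and 81.4 and 77.1 at 24 hr. Its log2 ratios of 3.87, 2.26 and 3.42 were the largest of the IRGs at all 3 times. The window of Ifi47 held no response element core and Iigp1 had no window, and a link between motifs and ratios was not tested. Iigp1 was the least abundant member at 1.5 and 6 hr. It was listed at 3.84 and 3.49 in untreated MEFs, 10.8 and 10.96 at 1.5 hr, 10.9 and 11.6 at 6 hr, and 16.3 and 16.6 at 24 hr. Its untreated value rests on an estimated 11.8 and 10.8 reads, with counting errors of 29.1% and 30.4%. Iigp1 did not share the peak at 1.5 hr: its log2 ratios were 1.35, 1.39 and 1.90, and as deposited its highest value came at 24 hr in both columns. Under each of the 3 other scalings its highest value came at 6 hr.

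The order of the levels shifted with time. In untreated MEFs it ran from Irgm1 (45.1), Igtp (27.7) and Gbp2 (16.6) through Gbp7 (14.2), Gbp3 (13.4), Irgm2 (11.2) and Ifi47 (6.48) to Iigp1 (3.66) and Gbp5 (3.14). The column ranges of Gbp7, Gbp3 and Irgm2 overlapped in turn, as did those of Iigp1 and Gbp5, so these neighbours did not differ beyond their columns. At 1.5 hr the order ran Gbp2, Irgm1, Gbp3, Gbp7, Gbp5, Igtp, Ifi47, Irgm2 and Iigp1, and only Igtp and Ifi47 had overlapping columns. At 6 hr no neighbours overlapped. At 24 hr Irgm1 (332) and Gbp2 (296) led, Igtp overlapped with Gbp3 and Gbp7 with Irgm2, and Gbp5 was again the lowest (15.5). Iigp1 (16.5) was close to Gbp5, and their counting errors were 12.8% to 13.2% per column, so their order is not secure. The summed level of the 4 GBPs was below that of the 5 IRGs in untreated MEFs (47.4 against 94.1), above it at 1.5 hr (950 against 699) and at 6 hr (305 against 197), and below it again at 24 hr (454 against 571).

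At 6 hr, 7 of the 9 members were at least 2-fold higher than in untreated MEFs in both columns, all but Irgm2 and Igtp, against 1.89% of all genes. The median log2 ratio of the members was 1.44, and it lay between 2.16 and 2.29 under 3 other scalings of the libraries (by their sums, by the median of ratios or by trimmed log ratios). Under these scalings 6.22% to 8.12% of all genes were higher. The 6 hr library was low as a whole, with a median log2 ratio over all genes of -0.64, and scaling the libraries to the median of ratios moved this median to 0.00. Relative to the median of all genes, the ratio of Igtp was 0.50 and that of Irgm2 was 1.01. Under each of 3 scalings Igtp was above its untreated level, with a log2 ratio between 0.58 and 0.70, so its direction at 6 hr depends on the scaling. Against 1.5 hr, as deposited, 8 of the 9 members were at least 2-fold lower at 6 hr in both columns, all but Iigp1, and 47.2% of all genes were. The 3 other scalings multiply the 6 hr values by 1.67 to 1.82 and those at 1.5 hr by 0.75 to 0.84. The falls are thus smaller under them, and the count of 8 was not remade. The members' median log2 ratio was then 2.70 to 2.87 at 1.5 hr. As deposited, values at 6 hr below those at 1.5 and 24 hr in both columns were found for 7 members and for 65.6% of all genes. Under each of the 3 other scalings, Gbp3 and Gbp7 no longer showed this course.

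At 24 hr all 9 members were at least 2-fold higher than in untreated MEFs in both columns, against 11.9% of all genes. The median log2 ratio was 2.06, against 0.00 over all genes. The ratios spread from 1.72 for Igtp to 4.08 for Gbp2.

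**Figure D3:**
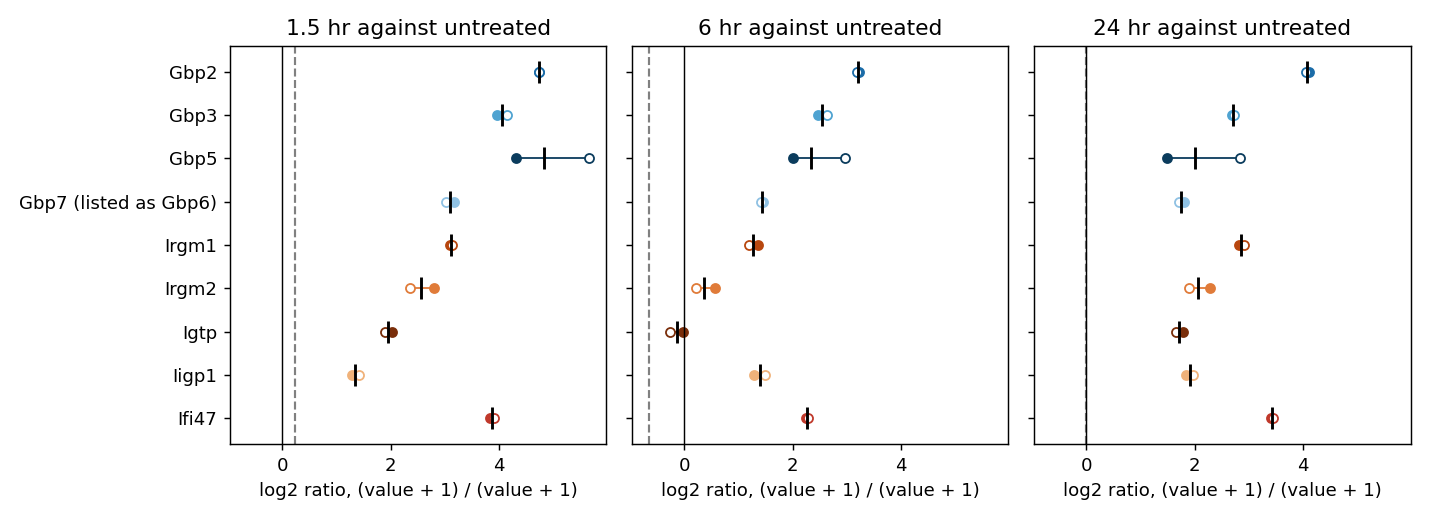
Log2 ratio of each member to the untreated library at 1.5, 6 and 24 hr, on the scale of the value plus 1. Filled points are R1, open points R2, black ticks the ratio of their means, and the dashed line is the median of all genes (0.24, -0.64 and 0.00), with every member to its right.

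From 6 to 24 hr, 4 of the 5 IRGs were at least 2-fold higher again in both columns, all but Iigp1, and 0 of the 4 GBPs were, against 31.3% of all genes. The log2 ratio of 24 to 6 hr was 1.86 for Igtp, 1.69 for Irgm2, 1.58 for Irgm1 and 1.16 for Ifi47. It was 0.87 for Gbp2, 0.31 for Gbp7, 0.15 for Gbp3 and -0.34 for Gbp5. The median of all genes was 0.72, so that these 4 IRGs lay 0.44 to 1.14 above it, while Gbp3, Gbp5 and Gbp7 lay 0.41 to 1.06 below it and Gbp2 lay 0.15 above it. Under the 3 other scalings 0 or 1 of the 5 IRGs passed the 2-fold limit, and the IRG median stayed above the GBP median, for example 0.72 against -0.62 with the median of ratios. Relatives outside the members did not all follow this split. As deposited, the IRGs Tgtp1, Tgtp2 and Irgq went from means of 22.7, 22.3 and 94.2 to 40.9, 45.9 and 168. The GBPs Gbp10, Mpa2l, Gbp1 and Gbp9 went from 11.8, 15.4, 72.3 and 3.38 to 23.3, 33.0, 103 and 3.76.

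Set against 1.5 hr, the levels at 24 hr differed more for the 4 GBP members than for the 5 IRG members. As deposited, 3 of the 4 GBPs, all but Gbp2, and 0 of the 5 IRGs were at least 2-fold lower in both columns, against 4.81% of all genes. The log2 ratio of 24 to 1.5 hr was -2.83 for Gbp5, -1.35 for both Gbp3 and Gbp7, and -0.65 for Gbp2. Under the 3 other scalings the median of the 4 GBPs lay between -1.04 and -0.99, about the 2-fold limit, so the count of 3 depends on the scaling. Among the IRGs, as deposited, the log2 ratio lay between -0.49 for Irgm2 and 0.56 for Iigp1, around the median of all genes of -0.29. The genes of a family are neighbours with related sequences and are not replicates, so this split describes 9 genes. Other listed GBPs and IRGs did not all follow it. From 1.5 to 24 hr the IRGs Tgtp1 and Tgtp2 went from means of 105 and 100 to 40.9 and 45.9, and Irgq from 256 to 168. Among GBPs, Gbp10 and Mpa2l went from 38.1 and 54.7 to 23.3 and 33.0, Gbp1 from 322 to 103 and Gbp9 from 13.5 to 3.76.

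**Figure D4:**
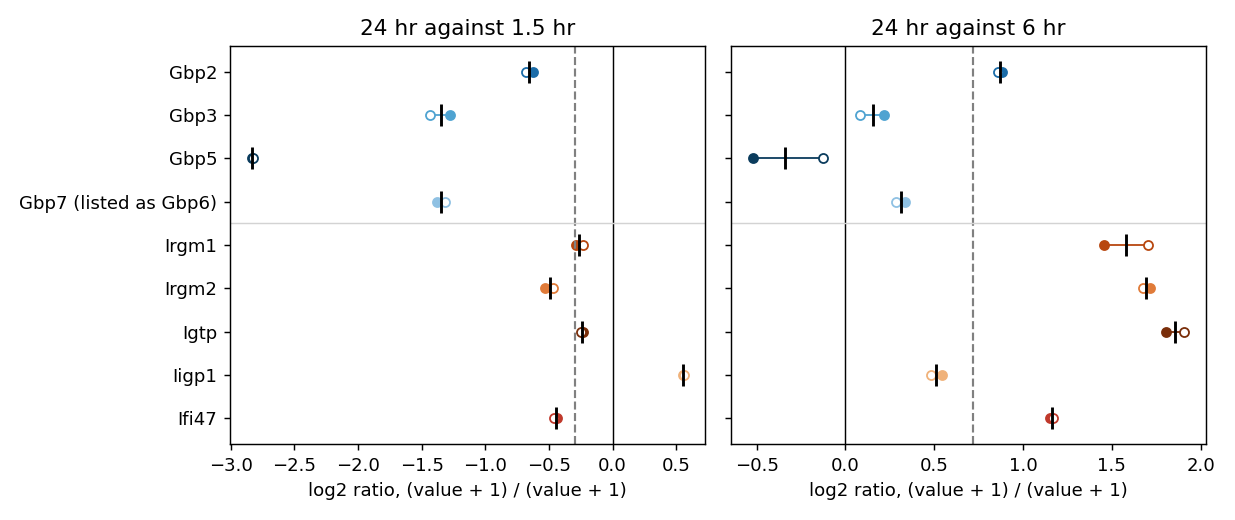
Log2 ratio of 24 hr to 1.5 hr (left) and to 6 hr (right) for the 4 GBPs (above the grey line) and 5 IRGs. Symbols are as for the ratios to the untreated library and the dashed lines are the medians of all genes, -0.29 and 0.72, with Gbp3, Gbp5 and Gbp7 left of both and Irgm1, Irgm2, Igtp and Ifi47 right of the one for 6 hr.

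H3K4me3 marks promoters that are active or ready for use. In untreated MEFs a peak lay within 1 kb of the annotated start of 5 of the 9 members, against 63.6% of the 17504 genes that could be placed and 61.5% of those with an untreated level in the range of the members. On chromosome 3 (mm9) the peaks were chr3:142192273-142194521 at Gbp7 (749 tags, 43.8-fold enrichment), chr3:142222491-142224289 at Gbp3 (355 tags, 39.2-fold) and chr3:142282431-142285090 at Gbp2 (359 tags, 21.0-fold). On chromosome 11 they were chr11:58012190-58014254 at Igtp (237 tags, 64.8-fold) and chr11:58027457-58029955 at Irgm2 (165 tags, 22.9-fold). All 5 covered the start, and all held fewer tags than the median peak of the list (1049).

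Of the members with no peak, Gbp5, Iigp1 and Ifi47 had the lowest untreated levels of the 9. Irgm1 had the highest, and yet the nearest peak lay 11996 bp from its start. The nearest peak was 32367 bp away for Gbp5 and 114444 bp for Ifi47. The list holds no peak under 20-fold enrichment, so a weaker peak at these starts would not be seen. Both kinds of member were higher at 1.5 hr: the log2 ratios ran from 1.96 (Igtp) to 4.73 (Gbp2) with a peak and from 1.35 (Iigp1) to 4.83 (Gbp5) without one.

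**Figure D5:**
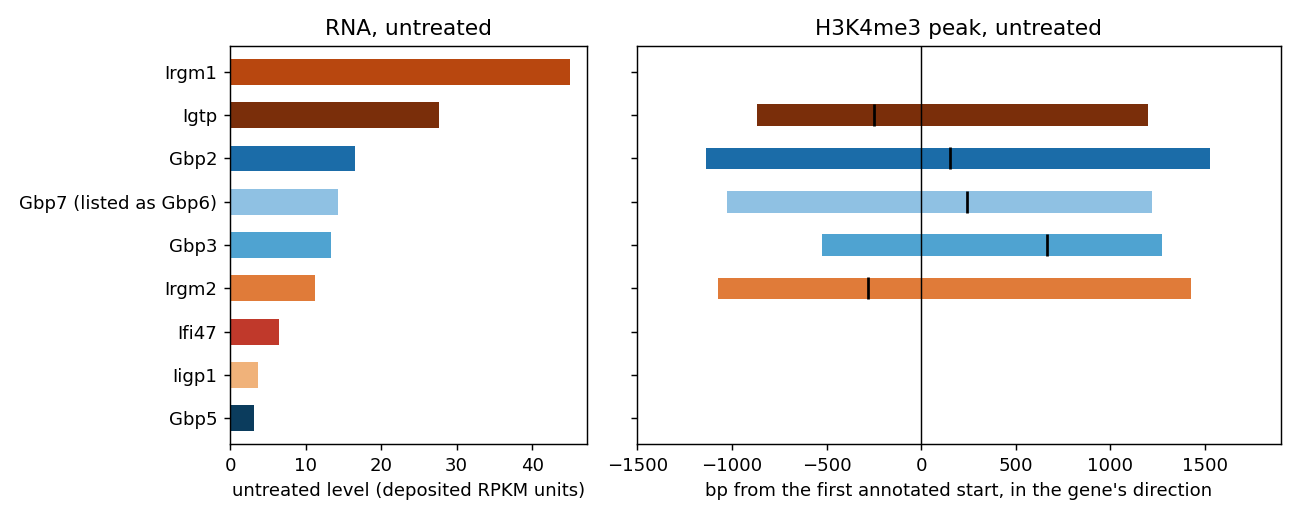
Untreated RNA level of the 9 members in deposited RPKM units (left, bars from 0) and the extent of the H3K4me3 peak at the start in bp from the first annotated start (right, black ticks mark the summit). Members are ordered by level, and Irgm1 at the top and Ifi47, Iigp1 and Gbp5 at the bottom have no peak.

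The 4 GBP members lie in 1 cluster of 141109 bp, chr3:142159864-142300972 in the GENCODE annotation of mm9, in the order Gbp5, Gbp7, Gbp3 and Gbp2. Igtp and Irgm2 lie side by side at chr11:58013058-58036282. Irgm1 (chr11:48675470-48685185) and Ifi47 (chr11:48890089-48910476) lie apart from them on the same chromosome. The nearest listed coding genes outside the families, chosen after the values were seen, had smaller ratios than most members: at 1.5 hr the log2 ratio was 1.37 for Pdlim5 and 1.06 for Ccbl2 on the sides of the GBP cluster, and 1.70 for Mrpl22 and -1.30 for Zfp692 (listed as Zfp692-ps) on the sides of Igtp and Irgm2. At 6 hr the 4 neighbours lay between -0.89 and -0.36, around the median of all genes of -0.64, and Pdlim5, Mrpl22 and Zfp692 lay above their untreated level under the 3 other scalings. From 6 to 24 hr the log2 ratios of Pdlim5, Ccbl2 and Mrpl22 lay between 1.44 and 1.89 and that of Zfp692 was -0.48. The value of Mrpl22, the highest of these, was close to that of Igtp (1.86), and those of Pdlim5 and Ccbl2 exceeded the values of the 4 GBPs between them.

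Of 14 other listed GTPases of these and related families, 9 were at least 2-fold higher in both columns at 1.5 hr (21.8% of all genes were), and 7 were so at 6 hr (1.89%) and again at 24 hr (11.9%). Gbp1, which RefSeq now calls Gbp2b and which lies in the same cluster, had the largest ratio at 1.5 hr, a log2 ratio of 5.23 from 7.85 and 7.28 in untreated MEFs to 333 and 310. At 6 hr its log2 ratio was 3.10 and at 24 hr it was 3.60. Mpa2l, RefSeq's Gbp6, lies in another cluster, at chr5:105699723-105722718. It was listed at 2.43 and 1.96 in untreated MEFs, 55.2 and 54.1 at 1.5 hr, 16.6 and 14.1 at 6 hr, and 33.4 and 32.5 at 24 hr. Its log2 ratios were 4.12, 2.36 and 3.41, and 1.05 from 6 to 24 hr, with 0.97 from R1 and 1.15 from R2. Of its 41-base sequences, 84.8% also occur in another gene, most often Gbp10, so most of its reads may be shared with Gbp10 and its values are uncertain to that extent. With Mpa2l as a member, the counts were 10 of 10 at 1.5 hr, 8 of 10 at 6 hr and 10 of 10 at 24 hr.

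The smallest ratio of these relatives at 1.5 hr was that of Irgc1, known from testis, at -1.10 from 0.73 and 1.55 to 0 in both columns. Gbp8 and Gbp4 were listed at under 10 everywhere and their columns disagreed. At 1.5 hr the log2 ratio of Gbp8 was 0.88 from R1 and 2.23 from R2, and that of Gbp4 was 1.14 and 2.54.

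The genes of the upstream pathway were counted from lists. For each list, the same shares of all genes stand beside it: at 1.5, 6 and 24 hr, 21.8%, 1.89% and 11.9% were at least 2-fold higher in both columns, and 10.2%, 25.4% and 14.0% at least 2-fold lower. Of 7 ligands and receptors, 3 were at least 2-fold higher at both 1.5 and 24 hr and 0 at 6 hr, when 1 was lower, the TNFα receptor gene Tnfrsf1a with -1.17. The ligand genes Ifng and Ifnb1 were listed at 0 in every column. Ifngr1 and Ifngr2, the chains of the interferon-γ receptor, had log2 ratios of 2.17 and 2.40 at 1.5 hr, 0.37 and 0.44 at 6 hr, and 1.49 and 1.94 at 24 hr. Of 15 signal transducers and transcription factors, 10 were higher at 1.5 hr, then 3 at 6 hr and 4 at 24 hr, and 0 were lower at any of these times.

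Irf1 was listed at 112 and 115 in untreated MEFs, 1229 and 1349 at 1.5 hr, 389 and 393 at 6 hr, and 312 and 314 at 24 hr. It peaked at 1.5 hr and was lower at each later time, with a log2 ratio of 24 to 6 hr of -0.32. As deposited, 1 of the 9 members, Gbp5, also had its lower value at 24 hr, with -0.34, and under each of the 3 other scalings 4 did: Gbp3, Gbp5, Gbp7 and Iigp1.

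Of 5 inhibitors, 2 were higher at every time. 1 was lower at 6 hr, Socs3 with a log2 ratio of -1.43. The higher genes were Nfkbia and Tnfaip3, inhibitors and targets of NF-κB, with log2 ratios at 1.5 hr of 4.49 and 5.62. Socs1, which blocks Jak kinases, had a log2 ratio of 1.06 at 1.5 hr without passing in both columns. Of 13 other interferon-γ targets, 5 were higher and 2 lower at 1.5 hr, 2 higher and 1 lower at 6 hr, and 6 higher and 2 lower at 24 hr. The chemokine gene Cxcl10 had a log2 ratio of 6.46 at 1.5 hr, whereas Ciita, the master regulator of MHC class II genes, had -1.20, from an untreated level of 6.83. The interferon-γ targets were thus not all higher. Of 13 genes for autophagy and ubiquitin conjugation, which place GBPs and IRGs on vacuoles, 9 were higher and 1 lower at 1.5 hr, 0 higher and 2 lower at 6 hr, and 5 higher and 1 lower at 24 hr. The lower ones were Map1lc3a at 1.5 and 24 hr and Atg7 and Gabarap at 6 hr.

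Over the 3 log2 ratios to the untreated library, the 5 genes nearest to the median profile of the members (3.12, 1.44, 2.06), among 6248 other genes with a mean of at least 100 deposited units, were Pfdn4, Birc3, 0610009D07Rik, Cd14 and Tnfaip2. Their Euclidean distances lay between 0.28 for Pfdn4 and 0.59 for Tnfaip2. The likeness rests on 4 libraries.

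Markers of other cells were read because macrophages also express GBPs and IRGs. All 9 fibroblast markers were listed, with Col1a1 at 44002 in untreated MEFs and 12173 at 24 hr. Of them 0, 4 and 3 were at least 2-fold lower in both columns at 1.5, 6 and 24 hr, against 10.2%, 25.4% and 14.0% of all genes. At 1.5 and 24 hr 1 was at least 2-fold higher, against 21.8% and 11.9% of all genes. It was Vim, at 5166 in untreated MEFs, 17325 at 1.5 hr and 14539 at 24 hr. Their summed level was 0.93, 0.48 and 0.59 times that of untreated MEFs. All marker sums here are as deposited, and the 6 hr library was low as a whole, with a median log2 ratio over all genes of -0.64. The sums did not move alike at 6 hr: those of the leukocyte, endothelial and epithelial lists were 0.93, 0.16 and 1.30 times the untreated ones. How far each sum follows the library as a whole was not tested. The endothelial markers summed to at most 5.04 and the epithelial markers to at most 5.34 at any time. Of 8 leukocyte markers, 6 were above 0, and the T cell marker Cd3e was at 0 in every column. The macrophage markers Csf1r and Cd68 were at 295 and 605 in untreated MEFs. The summed level of the leukocyte list was 3237 in untreated MEFs, 15946 at 1.5 hr, 3027 at 6 hr and 7719 at 24 hr, most of it Lyz2. Without Lyz2 the sum was 980 in untreated MEFs, 1279 at 1.5 hr, 335 at 6 hr and 532 at 24 hr. Of the 8 markers, 3 were at least 2-fold higher at 1.5 hr (21.8% of all genes were), Lyz2, Ptprc and Emr1, with log2 ratios of 2.70, 1.14 and 1.46. At 6 hr 2 were at least 2-fold lower, against 25.4% of all genes. At 24 hr 1 was higher, Lyz2, and 1 lower, Csf1r with -1.24, while Cd68 had -0.95. The part of these cells, and of the lower fibroblast markers, in the members' values was not tested, and in bulk RNA more cells of a type and more RNA per cell cannot be told apart.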

How the data were processed

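Per the study's methods, the authors placed directional paired-end RNA-seq reads on mm9 using TopHat, and an in-house script of theirs gave RPKM per RefSeq transcript. The deposited RPKM values come as columns R1 and R2 per library. The columns carry run names, which were linked to the times by the study's list of sequencing depths. ChIP-seq reads were placed by Bowtie, and MACS called the peaks. Per the file headers, the peak list deposited by the authors holds tag counts, a score from the log of the p-value, fold enrichments and FDR values in percent.

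For each gene the row with the highest mean over 8 columns was used, with a pseudocount of 1. Genes above 0 in any column (17964) were the background. The members and lists were chosen with earlier results of these data known. All members are named, other genes by count with examples, and the 5 nearest profiles by distance. A peak counted within 1 kb of a GENCODE start. Promoter letters and gene names came from RefSeq (GRCm38.p6), which paired 21328 genes. Simulated data were used to check the calls. Alternatives were other pseudocounts, scalings, thresholds and single columns. Protein sequences were not analysed here. Python 3.11.15, pandas 2.3.3, numpy 2.4.6, matplotlib 3.10.9 and biopython 1.88 were used. Results for some genes are not reported here.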

Additional observations from a re-analysis of the deposited data

Results flagged for a closer look

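Igtp had log2 ratios of opposite direction at different times: 1.96 at 1.5 hr and 1.72 at 24 hr against -0.14 at 6 hr, in both columns at each time. In all, 3 further GTPases did the same, Irgq with 0.72 at 1.5 hr, -0.72 at 6 hr and 0.11 at 24 hr, Mx1 with 0.84, -0.51 and 0.66, and Mx2 with 0.53, -0.44 and -0.28. These differences between times were not tested, since each time has 1 library. The median of all genes was -0.64 at 6 hr, and with the libraries scaled to the median of ratios the values at 6 hr were 0.65 for Igtp, 0.087 for Irgq, 0.16 for Mx1 and 0.34 for Mx2, so that the opposite direction at 6 hr depends on the scaling.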

How the results depend on the processing

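The counts of members at least 2-fold higher stayed within 1.5 times of those given, except at 6 hr with a 3-fold threshold, which left 4. At 1.5 hr the count was 8 with the median of ratios and with the trimmed mean of log ratios. With a pseudocount of 10 the counts were 8, 6 and 7 at 1.5, 6 and 24 hr. The median log2 ratio of the members kept its sign under every setting tried. At 1.5 hr it was 3.19 with no pseudocount, 2.84 with a pseudocount of 10, 2.87 scaled to the sum, 2.70 with the median of ratios, 2.76 with the trimmed mean of log ratios and 3.49 with Mpa2l as a member. At 6 hr these were 1.62, 1.13, 2.29, 2.23, 2.16 and 1.85. At 24 hr they were 2.31, 1.50, 2.12, 2.01, 2.04 and 2.38. The single columns gave 2.28 (R1) and 2.72 (R2) at 24 hr, both above the 2.06 given. The columns there are thus a wide yardstick, and staying within them does not show that the median is stable. For 24 against 6 hr, in the order sum, median of ratios and trimmed mean, the GBP median was -0.56, -0.62 and -0.51 and so changed sign, and the IRG median was 0.78, 0.72 and 0.82, and 1.28 with a pseudocount of 10. For 24 against 1.5 hr, the GBP median was -1.04, -0.99 and -1.01, and -1.24 with a pseudocount of 10, and the IRG median was 0.051, 0.098 and 0.075 and so changed sign. These rest on the scaling of whole libraries, whose cause was not tested. Among single members, 116 of the alternative ratios moved by no more than the larger distance of a column's ratio from that of the mean. A further 100 moved more, and 0 of those called changed sign. By this rule the single-column ratios could not move more, and the mean of all rows left members with 1 row unchanged. The 116 thus overstate how stable the ratios are. Peaks of at least 40-fold left 2 members with a peak. On the gene's own strand, the response element core was found in 3 members, the NF-κB consensus in 0 and the TATA box in 1. No paired analysis was possible because each time has 1 library. Depth limits Gbp5, Iigp1 and Ifi47 most, with under 16 estimated reads per untreated column. The Mpa2l setting and the comparisons with 6 and 1.5 hr were added after the data were seen.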
